A study of Rattus norvegicus with 18 samples.

Results

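Epb41l2 and LOC100363112 were described across RNA immunoprecipitations (RIP) of axoplasm, the cytoplasm pressed out of nerve fibres. They were chosen by gene symbol because earlier results of these data had shown them high in RNA precipitated with La/SSB and low in the control precipitate, so their levels in La/SSB, FLAG and Input libraries are given as a description, with no test. The table of 13416 transcript entries held 3 entries of these genes: Epb41l2 had 2 and LOC100363112 had 1. All 3 passed the filter on low counts. Entry ENSRNOT00000079688 of Epb41l2 was 2370 bases long and entry ENSRNOT00000061332 was 2991 bases long, both on chromosome 1, and the LOC100363112 entry, ENSRNOT00000046977, was 624 bases long, on chromosome 3. The Epb41l2 entries are called here by their lengths.

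The rats were of the SD (Sprague-Dawley) strain and had a crush injury of the sciatic nerve, and the proximal nerve was taken 7 days later. Proteins were precipitated together with their bound RNA with an antibody to La/SSB, to hnRNP H1, to hnRNP F, to hnRNP K or to FLAG, a synthetic tag whose antibody served as the control, and unprecipitated axoplasm RNA was sequenced as Input. Each of the 6 groups had 3 libraries, 18 in all, and every group, controls included, came from crushed nerve, so no uninjured nerve entered any comparison. The labels do not say whether the 3 libraries of a group came from separate animals, and p-values then measure only the spread between these libraries, which may be technical.

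La/SSB is an RNA-binding protein known for holding the uridine-rich tails of RNA polymerase III products such as U6 and 7SK, and it also binds some mRNAs. hnRNP H1 and hnRNP F are closely related proteins that bind guanine-rich RNA, and hnRNP K binds cytosine-rich RNA. Epb41l2 encodes a protein of the Epb41 family, which ties membrane proteins to spectrin and actin under the plasma membrane. In mouse peripheral nerve it is found in Schwann cells, where it holds adhesion and scaffold proteins such as Cadm4, Mpp6 and Lin7 in place. No function is assigned here to LOC100363112, which has only a locus name.

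Read totals ranged from 4610750 to 16754262 per library, so that 3 reads were worth between 0.179 and 0.651 counts-per-million (CPM). The FLAG libraries were the most uneven, with 1601 and 1568 entries at 0 reads in FLAG RIP 1 and 3 and 776 in FLAG RIP 2, and a median SD over entries of 0.98 on the log2 CPM scale, against 0.38 to 0.77 in the other groups. Transcripts of Schwann cells (11 of 12 listed genes were in the table) took 0.352% to 0.456% of reads in La/SSB RIPs, 0.298% to 0.533% in the hnRNP RIPs, 0.137% to 0.251% in FLAG RIPs and 0.329% to 0.411% in Input. Neuronal transcripts (9 of 10 genes) took 0.0169% to 0.0306% of reads in La/SSB RIPs, 0.0338% to 0.0404% with hnRNP H1, 0.0288% to 0.0661% with hnRNP F, 0.0134% to 0.0141% with hnRNP K, 0.0101% to 0.0176% with FLAG and 0.0165% to 0.0192% in Input. Transcripts of fibroblasts (6 of 6 genes) took 5.09% to 7.6% of reads in La/SSB RIPs, 8% to 12% with hnRNP H1, 6.16% to 9.87% with hnRNP F, 12% to 21.3% with hnRNP K, 1.55% to 2.53% in FLAG RIPs and 4.72% to 9.43% in Input. Transcripts of Schwann cells and fibroblasts were thus present in every group, and their part in the values below was not tested. In a bulk precipitate, fewer cells of a type and less RNA per cell cannot be told apart.

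The 2370-base entry of Epb41l2 was highest in La/SSB RIPs and nearly absent from FLAG RIPs. It had 158, 127 and 92.2 CPM in the 3 La/SSB RIPs, from 2019, 1409 and 1050 reads. In hnRNP RIPs the same entry had 70.4, 60.9 and 36.4 CPM with hnRNP H1, 32.8, 23.2 and 29.7 CPM with hnRNP F, and 2.32, 1.42 and 1.54 CPM with hnRNP K. In FLAG RIPs it had 0.346, 0.602 and 0.365 CPM, which stand for 6, 6 and 7 reads, and in Input it had 3.01, 15.5 and 2.98 CPM. No group overlapped its neighbour in the order La/SSB (126 ± 32.9 CPM, SD, n = 3), hnRNP H1 (55.9 ± 17.6 CPM), hnRNP F (28.5 ± 4.9 CPM), Input (7.18 ± 7.25 CPM), hnRNP K (1.76 ± 0.492 CPM) and FLAG (0.437 ± 0.143 CPM). Input 2 stood far above the other Input libraries, and the Input SD is as large as its mean for that reason.

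The 2991-base entry of the same gene did not follow that pattern. It had 44.7, 30.2 and 22.4 CPM in La/SSB RIPs, against 56.7, 25 and 33.9 CPM in FLAG RIPs and 22.6, 34.9 and 19.2 CPM in Input. With hnRNP H1 it had 40.3, 47.6 and 30.5 CPM, with hnRNP F 54.5, 30.3 and 33.7 CPM, and with hnRNP K 14.4, 14.6 and 6.56 CPM. The La/SSB, hnRNP H1, hnRNP F, FLAG and Input libraries overlapped in a range of 19.2 to 56.7 CPM, and the hnRNP K libraries lay below all of them. The group means were 39.5 ± 8.59 CPM with hnRNP H1, 39.5 ± 13.1 with hnRNP F, 32.4 ± 11.3 with La/SSB, 11.8 ± 4.57 with hnRNP K, 38.5 ± 16.3 with FLAG and 25.6 ± 8.25 in Input (SD, n = 3 each).

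LOC100363112 was also highest in La/SSB RIPs and lowest in FLAG RIPs, but differed from the 2370-base Epb41l2 entry in its order among the hnRNP RIPs. It had 163, 76.9 and 86.3 CPM in La/SSB RIPs, from 2080, 856 and 983 reads. It had 9.62, 8.1 and 11.6 CPM with hnRNP H1, 6.8, 4.99 and 3.47 CPM with hnRNP F, and 13.8, 10.9 and 9.48 CPM with hnRNP K. In FLAG RIPs it had 0.115, 0.702 and 0.156 CPM, from 2, 7 and 3 reads, against 7.34, 10.1 and 9.44 CPM in Input. The order of the means was La/SSB (109 ± 47 CPM), hnRNP K (11.4 ± 2.22 CPM), hnRNP H1 (9.78 ± 1.78 CPM), Input (8.96 ± 1.45 CPM), hnRNP F (5.08 ± 1.67 CPM) and FLAG (0.324 ± 0.327 CPM; SD, n = 3 each). The hnRNP K, hnRNP H1 and Input libraries overlapped, and the La/SSB, hnRNP F and FLAG libraries each stood apart from their neighbours in that order. La/SSB RIP 1 was the highest La/SSB library for all 3 entries. Every entry of the table had at least 10 reads in La/SSB RIP 1, with 160 entries at exactly 10, and no other library had such a floor.

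**Figure D1:**
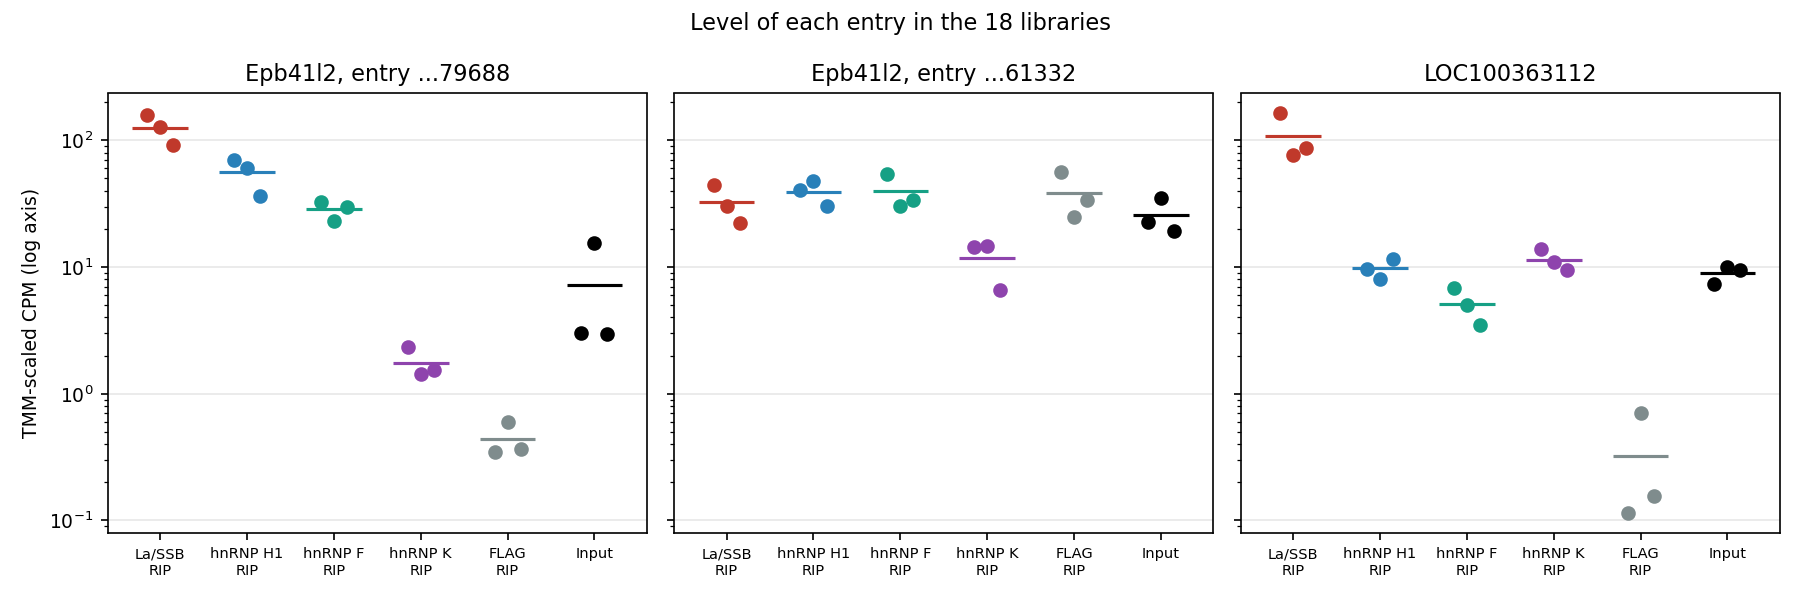
TMM-scaled CPM (log axis) of the 2370-base Epb41l2 entry, the 2991-base Epb41l2 entry and LOC100363112 in each library, with 1 point per library, replicates 1 to 3 from left to right, and a line at the mean of the 3 libraries. The 2370-base entry and LOC100363112 are at 76.9 to 163 CPM in La/SSB RIPs and below 1 CPM in FLAG RIPs, while the 2991-base entry is at 22.4 to 44.7 CPM in La/SSB RIPs and 25 to 56.7 CPM in FLAG RIPs.

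Per transcript length, LOC100363112 was the most abundant of the 3 entries in La/SSB RIPs. In FPKM, the fragments per kilobase of transcript scaled to library depth, as deposited by the authors, it averaged 231 ± 96.2 in La/SSB RIPs, against 0.689 ± 0.766 in FLAG RIPs and 17.3 ± 3.53 in Input (SD, n = 3 each). The 2370-base Epb41l2 entry averaged 70.4 ± 17 FPKM in La/SSB RIPs, against 0.232 ± 0.107 in FLAG RIPs and 3.64 ± 3.67 in Input. The 2991-base entry averaged 14.4 ± 4.76 FPKM in La/SSB RIPs, against 15.3 ± 5.2 in FLAG RIPs and 10.2 ± 3.26 in Input. All 3 La/SSB RIPs held more FPKM in the shorter Epb41l2 entry, and all 3 Input libraries held more in the longer one.

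The 2 Epb41l2 entries divided the gene's signal differently in each precipitate. The 2370-base entry held 81.7%, 84.1% and 83.9% of the gene's FPKM in La/SSB RIPs. Its share was 68.8%, 61.8% and 60.1% with hnRNP H1, 43.1%, 49.2% and 52.6% with hnRNP F, and 16.9%, 10.9% and 22.8% with hnRNP K. In FLAG RIPs its share was 0.764%, 2.95% and 1.34%, and in Input it was 14.4%, 36% and 16.4%. The La/SSB, hnRNP H1, hnRNP F and FLAG groups did not overlap one another, and the hnRNP K libraries overlapped those of Input. Counted in reads, the share with FLAG RIP 2 was 6 of 255 reads, or 2.35% (95% exact Clopper-Pearson interval 0.868% to 5.05%), and that with La/SSB RIP 3, the La/SSB library with the fewest Epb41l2 reads, was 80.5% of 1305 reads (78.2% to 82.6%). Such intervals cover counting error only. Both entries belong to the same gene, and no source used here gives how the authors assigned reads that fit both, so the division between them carries that uncertainty.

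**Figure D2:**
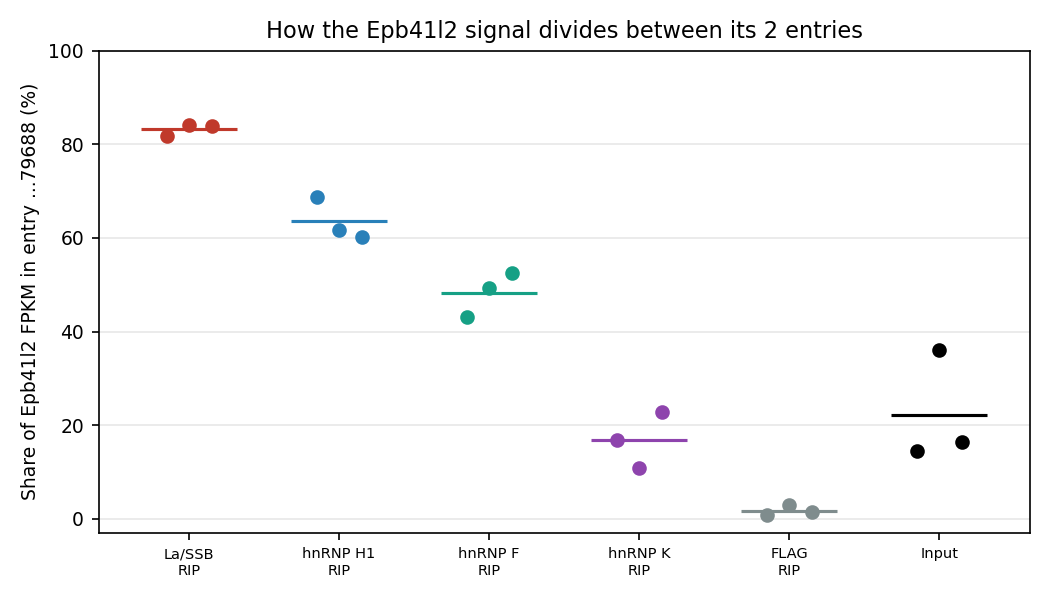
Share of the summed FPKM of both Epb41l2 entries that fell in the 2370-base entry (percent), with 1 point per library and a line at the mean of 3 libraries. The means were 83.2% in La/SSB RIPs, 63.6% with hnRNP H1, 48.3% with hnRNP F, 16.9% with hnRNP K, 1.69% with FLAG and 22.3% in Input.

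Summed over its entries, Epb41l2 averaged 158 ± 44 CPM in La/SSB RIPs, 95.4 ± 24.7 with hnRNP H1, 68 ± 17.4 with hnRNP F, 13.6 ± 4.78 with hnRNP K, 38.9 ± 16.2 with FLAG and 32.7 ± 15.4 in Input (SD, n = 3 each). The summed gene was thus only about as high in FLAG RIPs as in Input, since the 2991-base entry supplied nearly all of its FLAG reads. Across the 18 libraries the log2 CPM of the 2 Epb41l2 entries had a Pearson correlation of 0.39, while the 2370-base entry and LOC100363112 had 0.75. These libraries share their antibody groups, and the values describe the pattern over groups.

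As fold changes, La/SSB RIPs exceeded FLAG RIPs by 8.11 ± 0.59 (SE) on the log2 scale for the 2370-base Epb41l2 entry and by 8.43 ± 0.79 for LOC100363112, while the 2991-base entry had -0.30 ± 0.50. The median of all 13227 entries tested was -0.11. In that comparison 8.51% of all entries were called higher in La/SSB RIPs and 5.36% lower, at a Benjamini-Hochberg adjusted p under 0.05 in edgeR's quasi-likelihood test. Ranked from the top, LOC100363112 stood at 49 and the 2370-base entry at 79 of 13227, and the 2991-base entry at 7407. Pooled over 3 libraries each, reads per TMM-scaled library size were 430 times as high in La/SSB RIPs as in FLAG RIPs for LOC100363112 (95% interval 246 to 833, 12 FLAG reads). For the 2370-base entry they were 311 times as high (199 to 516, 19 FLAG reads), counting error only. FLAG RIP 2 had the most LOC100363112 reads of the FLAG libraries, and the log2 fold change of LOC100363112 was 9.45 without that library and 7.21 with it as the sole control. With FLAG RIP 2 alone the 2991-base entry had a log2 fold change of 0.34, of the opposite sign, and the 2370-base entry 7.64.

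Against the mean of the 3 hnRNP RIPs, LOC100363112 was higher in La/SSB RIPs by 3.68 ± 0.42 and the 2370-base entry by 3.12 ± 0.31 on the log2 scale, and the 2991-base entry had 0.26 ± 0.40. They ranked at 71, 151 and 5895 of 13227 in that order, in a comparison in which 3.78% of entries were called higher in La/SSB RIPs and 6.6% lower. The scaling of the libraries mattered here. With total counts in place of TMM factors the median of all entries moved to 0.89, against 0.13, the calls divided into 2987 higher and 380 lower in La/SSB RIPs, against 500 higher and 873 lower with TMM, and the 3 members had 4.43, 3.88 and 1.02. Each member thus moved by about as much as the median did.

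Taken by partner, the 2 genes differed most in hnRNP K RIPs. The 2370-base entry was higher in La/SSB RIPs by 1.16 ± 0.43 against hnRNP H1, 2.12 ± 0.44 against hnRNP F and 6.07 ± 0.53 against hnRNP K, on the log2 scale, and ranked 35 of 13227 in the last. LOC100363112 was higher by 3.47 ± 0.61 against hnRNP H1, 4.39 ± 0.64 against hnRNP F and 3.17 ± 0.60 against hnRNP K. No La/SSB library overlapped an hnRNP library for either entry. The 2991-base entry had log2 fold changes of -0.28 ± 0.50, -0.30 ± 0.50 and 1.37 ± 0.51 in these comparisons, and its La/SSB libraries were apart from those of hnRNP K only.

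**Figure D3:**
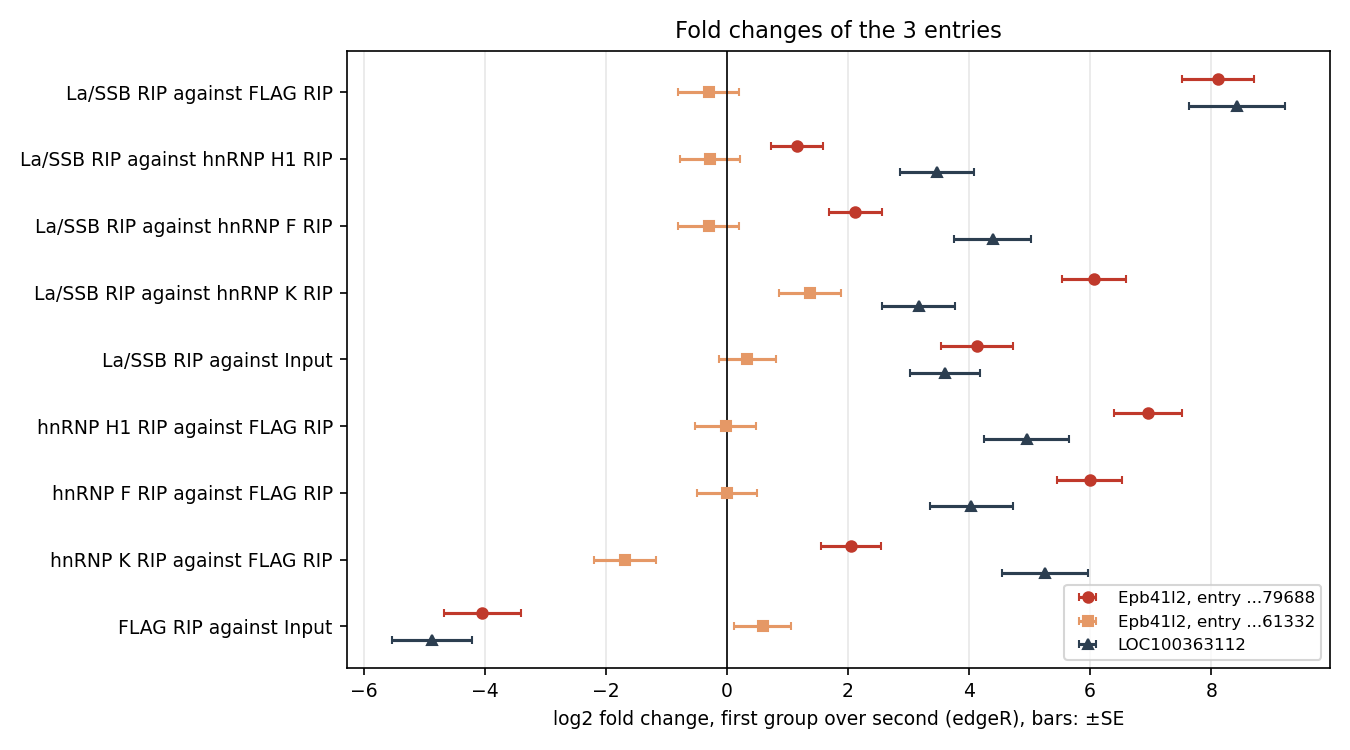
Log2 fold changes of the 3 entries in 9 comparisons (first group over second, edgeR, bars are standard errors). The 2370-base Epb41l2 entry and LOC100363112 are at 8.11 and 8.43 in La/SSB RIPs against FLAG RIPs and below 0 in FLAG RIPs against Input, while the 2991-base entry lies between -1.68 and 1.37 in all 9.

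The unprecipitated RNA gave a second baseline. La/SSB RIPs exceeded Input by 4.13 ± 0.60 for the 2370-base entry and by 3.60 ± 0.58 for LOC100363112 on the log2 scale, and the 2991-base entry had 0.34 ± 0.47. FLAG RIPs were below Input by the fitted log2 fold changes of -4.04 ± 0.64 for the 2370-base entry and -4.87 ± 0.66 for LOC100363112, against 0.59 ± 0.47 for the 2991-base entry. The mean of the hnRNP RIPs differed from Input by 0.98 ± 0.47 for the 2370-base entry and by -0.11 ± 0.43 for LOC100363112, and the libraries overlapped for both. Input 2 decided part of the first value: without it the 2370-base entry had 2.24 for the hnRNP mean against Input, 5.36 for La/SSB RIPs against Input and -2.75 for FLAG RIPs against Input.

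The differences among the hnRNP RIPs were tested, since the genes were chosen for La/SSB and not for these. Their levels in the hnRNP RIPs were also known when they were chosen, so the p-values may be too small and are no independent evidence. The 2370-base entry differed among hnRNP H1, hnRNP F and hnRNP K RIPs (edgeR quasi-likelihood F-test, adjusted p = 3.06e-06, over all 13227 entries, of which 27.4% were called). It was higher in hnRNP H1 RIPs than in hnRNP K RIPs by 4.90 ± 0.50 and higher in hnRNP F RIPs than in hnRNP K RIPs by 3.94 ± 0.48, and hnRNP H1 exceeded hnRNP F by 0.96 ± 0.43 on the log2 scale. The libraries of these 3 groups did not overlap.

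The 2991-base entry also differed among the hnRNP RIPs, with an adjusted p of 0.0342 in edgeR's quasi-likelihood test, with hnRNP K the lowest. It was higher by 1.66 ± 0.51 in hnRNP H1 RIPs and by 1.68 ± 0.51 in hnRNP F RIPs than in hnRNP K RIPs, and hnRNP H1 and hnRNP F differed by -0.02 ± 0.50. That call rested on single libraries: edgeR's adjusted p was 0.0523 without hnRNP H1 RIP 1, 0.0644 without hnRNP H1 RIP 2, 0.0547 without hnRNP F RIP 1, and 0.078, 0.0883 and 0.186 without hnRNP K RIP 1, 2 and 3. LOC100363112 did not pass the same test (edgeR adjusted p = 0.251). Its log2 differences were 0.92 ± 0.58 for hnRNP H1 over hnRNP F, -0.30 ± 0.56 for hnRNP H1 over hnRNP K and -1.22 ± 0.58 for hnRNP F over hnRNP K, with no overlap between the hnRNP F libraries and those of hnRNP H1 or hnRNP K.

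Against FLAG RIPs the hnRNP RIPs followed the same orders. The 2370-base entry had log2 fold changes of 6.95 ± 0.56 with hnRNP H1, 5.99 ± 0.54 with hnRNP F and 2.05 ± 0.50 with hnRNP K. LOC100363112 had 4.95 ± 0.70, 4.04 ± 0.68 and 5.25 ± 0.71 in that order, and the 2991-base entry had -0.02 ± 0.50, 0.00 ± 0.50 and -1.68 ± 0.51. These comparisons and that of La/SSB RIPs share the FLAG libraries. The authors' deposited table gave log2 fold changes against FLAG of 7.67 for La/SSB, 6.56 for hnRNP H1, 5.67 for hnRNP F and 1.74 for hnRNP K for the 2370-base entry ENSRNOT00000079688. For LOC100363112 the authors' deposited table gave 7.93, 4.53, 3.69 and 4.84, and for ENSRNOT00000061332 it gave -0.57, -0.24, -0.16 and -1.87.

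The distance between the 2 Epb41l2 entries was large beside that in other genes. Their log2 fold changes in La/SSB RIPs against FLAG RIPs lay 8.42 apart, which ranked 14 among the 750 gene symbols with exactly 2 tested entries, whose median distance was 1.45. The distances were 10.32 for Rac1, 10.19 for Tifa and 10.01 for Rab7a, the top 3. Against the mean of the hnRNP RIPs the 2 entries lay 2.85 apart, at rank 38, with a median of 0.89. Epb41l2 was chosen with this pattern known, and the ranks describe it.

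**Figure D4:**
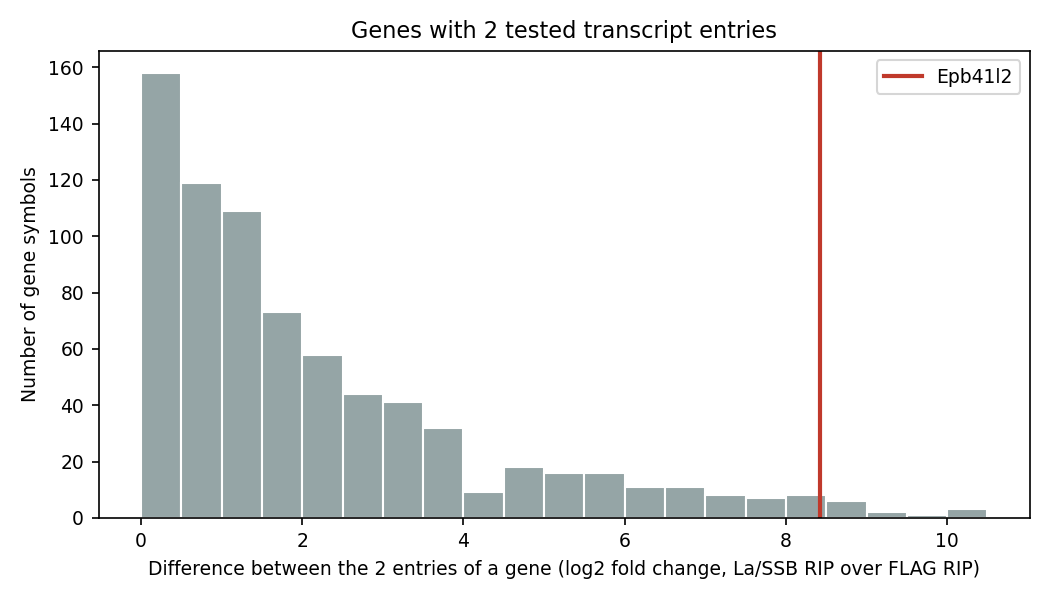
Histogram of the absolute difference between the 2 entries of a gene in log2 fold change (La/SSB RIPs over FLAG RIPs) over 750 gene symbols with 2 tested entries, in number of symbols per bin. The vertical line marks Epb41l2 at 8.42, at rank 14, far to the right of the median of 1.45.

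The entries whose pattern over all 18 libraries was most like that of the 2370-base Epb41l2 entry, by Pearson correlation of log2 CPM, were AABR07060118.1 (0.955), AABR07073453.1 (0.904), Incenp (0.893), Abcc5 (0.889) and Pigw (0.884). AABR07060118.1, on chromosome 4, averaged 107 CPM in La/SSB RIPs, 76.2 with hnRNP H1, 46.2 with hnRNP F, 2.3 with hnRNP K, 0.71 with FLAG and 17 in Input, the same order of groups as Epb41l2. AABR07073453.1, on chromosome 8, was instead higher with hnRNP H1 (105 CPM) and hnRNP F (115 CPM) than with La/SSB (41.7 CPM).

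For LOC100363112 the most similar entries were Top1 (0.912), Tmem237 (0.887), Pigl (0.872), Erap1 (0.866) and Mon2 (0.856). The Top1 entry, ENSRNOT00000041390, which is also on chromosome 3, averaged 10 CPM in La/SSB RIPs, 2.29 with hnRNP H1, 0.741 with hnRNP F, 1.46 with hnRNP K, 0.0174 with FLAG and 1.91 in Input. Its FLAG value stands for 1 read in 3 libraries. Top1, which encodes DNA topoisomerase I, was also 1 of the 5 genes at the top of the ranking by distance between 2 entries, with 9.08.

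Of the 6 other symbols of the Epb41 family, 2 were in the table, Epb41l3 and Epb41l4b, with 3 entries, and the other 4 were not analysed here. Epb41l3, whose protein in mouse nerve anchors membrane proteins beside the node of Ranvier, averaged 1.83 ± 0.919 CPM in La/SSB RIPs, 0.219 ± 0.379 with hnRNP H1, 0.0566 ± 0.0981 with hnRNP F, 2.36 ± 0.946 with hnRNP K, 0.0334 ± 0.0579 with FLAG and 1.32 ± 1.02 in Input (SD, n = 3 each). It was called higher in La/SSB RIPs than in FLAG RIPs (log2 fold change 5.56 ± 1.69, edgeR adjusted p = 0.0356), 1 of the 3 entries, where 8.51% of all entries were, from 66 La/SSB reads and 1 FLAG read. The call was lost without any 1 of the 3 La/SSB libraries, without FLAG RIP 1 or FLAG RIP 3, and with a replicate block. Against the mean of the hnRNP RIPs 0 of the 3 entries were called by edgeR or DESeq2, with 1 at an unadjusted p under 0.05. Of all entries edgeR called 3.78% higher and 6.6% lower there. Without hnRNP H1 RIP 3 edgeR called Epb41l3 higher in La/SSB RIPs.

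In hnRNP K RIPs, where the 2370-base Epb41l2 entry was low, Epb41l3 and 1 entry of Epb41l4b were called. The Epb41l3 call rested on 80 hnRNP K reads and 1 FLAG read. Entry ENSRNOT00000090366 of Epb41l4b averaged 9.15 ± 2.06 CPM in La/SSB RIPs, 2.22 ± 0.67 with hnRNP H1, 3.95 ± 2.65 with hnRNP F, 22 ± 1.6 with hnRNP K, 0.769 ± 1.33 with FLAG and 5.86 ± 2.28 in Input (SD, n = 3 each). Epb41l3 (log2 fold change 6 ± 1.71, edgeR adjusted p = 0.0135) and that entry of Epb41l4b (4.93 ± 1.38, edgeR adjusted p = 0.0122) were called higher in hnRNP K RIPs than in FLAG RIPs, 2 of 3 entries, in a comparison in which 15.7% of all entries were called higher and 14.9% lower. Both calls held without any 1 library of these groups, but that of Epb41l3 was lost with FLAG RIP 2 as the sole control, and that of Epb41l4b with only the hnRNP K and FLAG libraries in the fit. In hnRNP H1 and in hnRNP F RIPs 0 of the 3 were called against FLAG by edgeR or DESeq2, with 0 at an unadjusted p under 0.05. Of all entries edgeR called 18.7% higher and 17.1% lower with hnRNP H1, and 16.5% and 13.6% with hnRNP F. Without FLAG RIP 2 edgeR called 1 entry, of Epb41l4b, higher in each.

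Genes of the membrane skeleton and of partners that bind Epb41 proteins did not follow Epb41l2 as a group. Of 42 symbols, 34 were in the table, and 46 of their 48 entries were tested. In La/SSB RIPs against FLAG RIPs 1 of the 46 entries was higher and 2 were lower, where 8.51% and 5.36% of all entries were, with a median log2 fold change of 0.10, against -0.11 for all entries. The higher entry was ENSRNOT00000024575 of Tpm1, a tropomyosin that lines actin filaments (6.11 ± 0.86), and the lower ones were Tmod3, which caps actin filaments (-2.86 ± 0.40), and entry ENSRNOT00000023567 of Tpm3 (-1.16 ± 0.26). Without FLAG RIP 2 there were 11 calls, 7 of them higher. Against the mean of the hnRNP RIPs 3 of the 46 entries were lower in La/SSB RIPs and 0 higher, a share of lower entries close to the 6.6% of all entries (3.78% were higher). They were Cadm4 (-2.63 ± 0.75) and Cadm3 (-2.16 ± 0.67), adhesion molecules that join axon and Schwann cell, and Ezr, which links actin to the membrane (-1.05 ± 0.32). With total counts in place of TMM factors these 3 lost their calls, and 7 entries, of Actb, Add1, Add2, Itgb8, Lin7c, Tpm1 and Tpm3, were called higher in La/SSB RIPs instead. Leaving out La/SSB RIP 2 or 3, hnRNP H1 RIP 3 or hnRNP F RIP 3 also removed all 3 calls.

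Cadm4, Mpp6 and Lin7c, which form a complex with the Epb41l2 protein in mouse Schwann cells, each had a pattern of their own. Cadm4 averaged 9.9 ± 4.66 CPM in La/SSB RIPs, 158 ± 41.6 with hnRNP H1, 147 ± 83.9 with hnRNP F, 9.21 ± 0.435 with hnRNP K, 6.76 ± 5.8 with FLAG and 6.34 ± 2.59 in Input (SD, n = 3 each). Mpp6 averaged 23.5 ± 6.47 CPM in La/SSB RIPs, 18.6 ± 4.44 with hnRNP H1, 19 ± 4.81 with hnRNP F, 24 ± 7.11 with hnRNP K, 49.2 ± 27.6 with FLAG and 31.9 ± 4.05 in Input. Lin7c averaged 106 ± 18.2 CPM in La/SSB RIPs, 53.5 ± 6.36 with hnRNP H1, 36.3 ± 19 with hnRNP F, 77.9 ± 10.9 with hnRNP K, 117 ± 43.4 with FLAG and 118 ± 21.9 in Input. Cadm4 was high with hnRNP H1 and hnRNP F, as the 2370-base Epb41l2 entry was, but stayed near its Input level with La/SSB, where that entry was highest.

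In the hnRNP RIPs against FLAG RIPs, 3 of the 46 membrane skeleton entries were higher and 10 lower with hnRNP H1, where 18.7% and 17.1% of all entries were. With hnRNP F 5 were higher and 7 lower, where 16.5% and 13.6% of all entries were. With hnRNP K 5 were higher and 4 lower, where 15.7% and 14.9% of all entries were. Without hnRNP H1 RIP 3 the calls with hnRNP H1 were 3 higher and 5 lower, and without FLAG RIP 2 they were 8 higher and 9 lower with hnRNP H1, 8 higher and 10 lower with hnRNP F, and 11 higher and 4 lower with hnRNP K. Cadm4 was higher by 4.50 ± 0.89 with hnRNP H1 (edgeR adjusted p = 0.000848) and by 4.40 ± 0.88 with hnRNP F (0.00125). Msn, which encodes moesin, a membrane-actin linker, was higher with hnRNP K by 1.87 ± 0.23 (edgeR adjusted p = 2.17e-05). Among the hnRNP RIPs 10 of the 46 entries differed, where 27.4% of all entries did, with Msn at an edgeR adjusted p of 1.03e-07.

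The 6 genes of the table nearest to Epb41l2 in RefSeq's gene order, 3 on each side, were set beside it. All had smaller log2 fold changes than the shorter Epb41l2 entry in La/SSB RIPs, over FLAG RIPs and over the hnRNP mean. Epb41l2 was chosen as high in La/SSB RIPs, so this order is a description. Tmem200a, L3mbtl3 and Arhgap18 lie on one side, and Akap7, Arg1 and Med23 on the other. By edgeR 0 of the 6 were called in La/SSB RIPs against FLAG RIPs (1 at an unadjusted p under 0.05, 0 by DESeq2, log2 fold changes from -1.88 for Akap7 to 2.24 for Tmem200a, median -0.12), where 8.51% of all entries were higher and 5.36% lower. By edgeR 0 of the 6 were called against the mean of the hnRNP RIPs (2 at an unadjusted p under 0.05, 1 by DESeq2, -1.10 for Arg1 to 1.59 for Tmem200a, median 0.52), where 3.78% of all entries were higher and 6.6% lower. With only 6 entries, 0 called is close to these shares and says nothing particular about the neighbours. Without hnRNP F RIP 2 or hnRNP F RIP 3 Arhgap18 was called higher in La/SSB RIPs than in the hnRNP RIPs, and by total counts Arhgap18 and Med23 were called so.

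**Figure D5:**
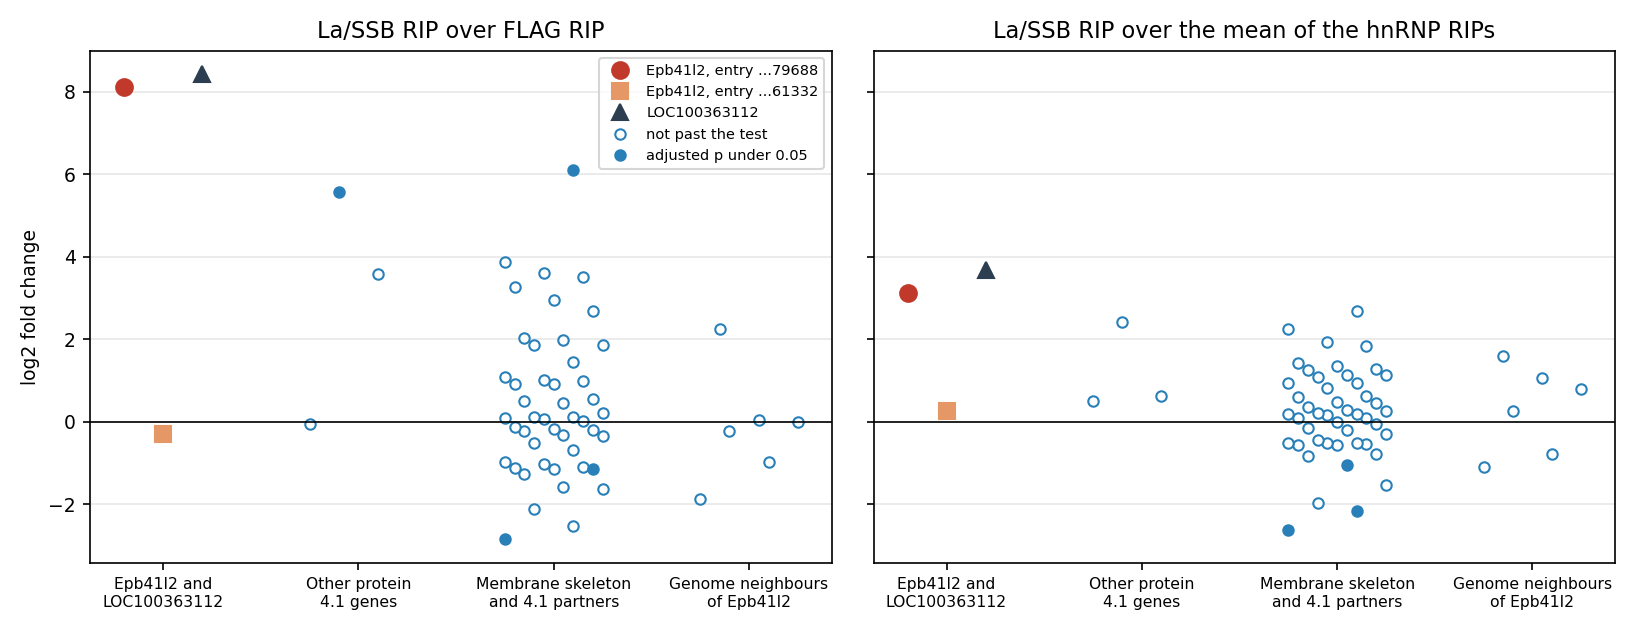
Log2 fold changes in La/SSB RIPs over FLAG RIPs and over the mean of the hnRNP RIPs for the 3 entries of Epb41l2 and LOC100363112, the other Epb41 family entries, the membrane skeleton and partner entries, and the genome neighbours of Epb41l2, with filled small points for an adjusted p under 0.05. The 2370-base Epb41l2 entry and LOC100363112 lie above every point of the 3 lists in both panels, with 8.11 and 8.43 over FLAG RIPs against at most 6.11 for Tpm1. These genes and the lists were chosen with earlier results of these data known, so the place of these genes above the lists is a description.

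The small RNAs that La/SSB is known to bind were set beside the members as a description. Of 17 symbols, 7 were in the table, with 72 entries, most of them repeated copies of U6 and 7SK that share sequence, and 63 were tested. They took 0.165%, 0.0933% and 0.0912% of reads in La/SSB RIPs, 0.0323% to 0.0427% with hnRNP H1, 0.0267% to 0.041% with hnRNP F, 0.00652% to 0.0079% with hnRNP K, 0.00318% to 0.0107% with FLAG and 0.051% to 0.0733% in Input. In La/SSB RIPs against FLAG RIPs 47 entries were higher and 0 lower, where 8.51% and 5.36% of all entries were, with a median log2 fold change of 6.24, and with FLAG RIP 2 as the sole control 7 were higher. Without La/SSB RIP 1, the library in which every entry had at least 10 reads, 19 were higher. Without La/SSB RIP 3, FLAG RIP 1 or FLAG RIP 3 the counts were 31, 28 and 29. An entry with fewer than 10 reads in La/SSB RIP 1 is not in the table, while no such floor holds for FLAG. The counts and the median over FLAG may be partly set by that floor, which was not tested. The hnRNP RIPs also had calls over FLAG RIPs. With hnRNP H1 44 were higher and 1 lower, with hnRNP F 36 and 1, and with hnRNP K 16 and 1. Of all entries 18.7%, 16.5% and 15.7% were higher and 17.1%, 13.6% and 14.9% lower. Against Input 1 of 62 entries was higher in La/SSB RIPs (0.0226% of all entries), a call lost without any 1 La/SSB or Input library. In FLAG RIPs 17 were lower than in Input and 0 higher (7.39% and 4.49% of all entries). In La/SSB RIPs against the mean of the hnRNP RIPs 8 were higher and 1 lower, where 3.78% and 6.6% of all entries were, with a median log2 fold change of 1.69. Among the higher ones were RNase_MRP, the RNA of a ribonucleoprotein enzyme that processes ribosomal RNA, with 6.79 ± 0.52, and entry ENSRNOT00000091948 of 7SK, which restrains transcription elongation, with 5.05 ± 0.96. Without hnRNP F RIP 1 there were 14 higher and 1 lower.

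RNase_MRP averaged 254 ± 64.5 CPM in La/SSB RIPs, 2.02 ± 0.423 with hnRNP H1, 6.28 ± 4.57 with hnRNP F, 0.873 ± 0.0874 with hnRNP K, 26.1 ± 27.7 with FLAG and 19 ± 2.51 in Input (SD, n = 3 each). LOC100363112 and the 2370-base Epb41l2 entry had larger fold changes than the median of these RNAs, both over FLAG and over the mean of the hnRNP RIPs, and in the second comparison smaller ones than RNase_MRP. Both were chosen as high in La/SSB RIPs and low in FLAG RIPs, so this order is a description and no test. The 7SK entry had no read in FLAG RIPs and was at least 236-fold higher in La/SSB RIPs, taking 3 reads over the FLAG group as the bound.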

How the data were processed

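RNA sequencing of 18 libraries was deposited as 1 table with counts, FPKM, normalized counts, log2 fold changes and FDR values for each transcript entry. Reads were processed with CASAVA 1.8.2 and edgeR, per the submitters' processing notes. No source used here names the aligner, the annotation release or the build. The authors' counts had 1 added to each value: the deposited FPKM values could be recomputed from the count minus 1 (largest relative deviation 9.2e-15), so 1 was taken off before testing. The authors' normalized counts, a signal scale, were not used, nor were the p-values and FDR values of the authors' deposited table for the members.

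Counts were tested per entry with edgeR 4.0.16 (R 4.3.3, limma 3.58.1): filterByExpr (minimum count 10, minimum total 15), TMM factors, glmQLFit and glmQLFTest, two-sided, with Benjamini-Hochberg adjustment over all entries and a threshold of 0.05. Comparisons among RIPs used 15 libraries (13227 entries, 10 residual degrees of freedom) and those with Input 18 (13263 entries, 12 degrees). The standard error is the log2 fold change over the square root of F. CPM are TMM-scaled. Correlations used log2 CPM with a prior count of 2. The 5 entries with the highest correlation to a member were named. The scripts were tested on simulated data. DESeq2 1.42.0 was an alternative; the others are named in the closing section.

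The members and the gene lists were chosen with earlier results of these data known. The table gives no start or end positions, so the neighbours of Epb41l2 were taken from the gene order of RefSeq assembly GRCr8, which holds no entry for LOC100363112. Replicate numbers were checked for pairing and were not used as pairs in the main fit, but a replicate block was an alternative. Figures were drawn with matplotlib 3.10.9.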

Additional observations from a re-analysis of the deposited data

Results flagged for a closer look

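The effect of an hnRNP RIP against FLAG RIPs differed between the hnRNP proteins for both Epb41l2 entries, tested as a difference among the hnRNP H1, hnRNP F and hnRNP K RIPs. For the 2370-base entry, ENSRNOT00000079688, edgeR's adjusted p was 3.06e-06, with 55.9 ± 17.6 CPM in hnRNP H1 RIPs, 28.5 ± 4.9 CPM in hnRNP F RIPs and 1.76 ± 0.492 CPM in hnRNP K RIPs (SD, n = 3 each). For the 2991-base entry, ENSRNOT00000061332, edgeR's adjusted p was 0.0342, with 39.5 ± 8.59, 39.5 ± 13.1 and 11.8 ± 4.57 CPM in the same order. Every hnRNP K library was below every hnRNP H1 and hnRNP F library for both entries. Levels in the hnRNP RIPs were known when the genes were chosen, so these p-values may be too small.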

How the results depend on the processing

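Changes of sign occurred in the log2 fold changes of the 2991-base Epb41l2 entry near 0 and in no other member value; among them were, over FLAG RIPs, 0.34 for La/SSB and 0.63 for hnRNP H1 with FLAG RIP 2 as the sole control and 0.09 for La/SSB without FLAG RIP 1; -0.06 for La/SSB over the hnRNP mean without La/SSB RIP 1; and over Input, -0.03 for FLAG RIP 2 and -0.53 for the hnRNP mean by total counts. Of the alternative values for members, 376 kept their size and call, 29 moved by more than the spread between libraries and 6 fell short of the threshold, all 6 for the 2991-base Epb41l2 entry without 1 hnRNP library. Over all alternatives the adjusted p among the hnRNP RIPs was 3.8e-20 to 9.23e-05 for the 2370-base entry, 0.0051 to 0.186 for the 2991-base entry and 0.118 to 0.474 for LOC100363112; the log2 fold change in La/SSB RIPs over FLAG RIPs was 7.64 to 8.35, -0.63 to 0.34 and 7.21 to 9.45, and over the mean of the hnRNP RIPs 2.90 to 3.88, -0.06 to 1.02 and 3.25 to 4.43. With the added constant left in, the 2370-base entry had 7.69 over FLAG RIPs.

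Counts of entries called moved more. With total counts, 3367 entries were called in La/SSB RIPs against the hnRNP mean, 2987 higher and 380 lower (1373 with TMM, 500 higher and 873 lower), and 3118 in the hnRNP mean against Input (2011). With only the libraries compared in the fit, the counts were 58 for La/SSB against FLAG (1835), 2402 for La/SSB against the hnRNP mean, 2583 for hnRNP H1 (4734), 1451 for hnRNP F (3988) and 2434 for hnRNP K (4044) against FLAG, 92 for La/SSB against Input (6) and 82 for FLAG against Input (1576). With FLAG RIP 2 as the sole control, taken to vary like the other groups, they were 418 for La/SSB, 2541 for hnRNP F and 2551 for hnRNP K against FLAG and 444 for FLAG against Input. DESeq2 called 88 for La/SSB against Input and 2586 for FLAG against Input. Leaving out each library in turn gave 882 to 2988 for La/SSB against FLAG, 704 to 1448 for La/SSB against the hnRNP mean, 2584 to 4685 for hnRNP K against FLAG, 0 to 2 for La/SSB against Input, 1178 to 2131 for the hnRNP mean against Input and 761 to 2795 for FLAG against Input. The cause of these changes was not tested.

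With group means taken off, libraries with the same number correlated by 0.01 to 0.19 over 45 pairs of groups and numbers, 7 of them above 0.1. These correlations were weak but all above 0, and a library correlated best with its own number in 88 of 90 cases. Libraries of the same number thus shared some variation, whose source the labels do not give. The main fit had no term for it, so its p-values and counts of calls leave it out. A replicate block gave 30 calls for La/SSB against Input, 1899 for La/SSB against FLAG, 1515 for La/SSB against the hnRNP mean and 3750 among the hnRNP RIPs (3624 without it), and removed the Epb41l3 call against FLAG. Counting error bears on the FLAG values, since the 2370-base entry rests on 19 FLAG reads and LOC100363112 on 12.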
